A study of Homo sapiens with 8 samples.

Results

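The 8 genes described here encode netrins and their receptors: the receptors UNC5A, UNC5B, UNC5C, UNC5D, DCC and NEO1, and the ligands NTN1 and NTN4. The gene family was chosen from a ranking of these same data, in which a region of UNC5B stood among the smallest deposited p-values. Its members are the listed regions that overlap the RefSeq span of one of the genes, extended by 3000 bp on each side, on build GRCh38. The rule found 45 of 35154 listed RBBP4 regions and 15 of 20496 listed P300 regions. Because the listing itself required a deposited p-value below 0.05, every member had to differ between the libraries, and the values are given as a description with no test.

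Chromatin immunoprecipitation sequencing (ChIP-seq) was performed in NCI-H69, a long-established cell line from a human small cell lung carcinoma. One group received siRNA against CSNK2B, which encodes the regulatory beta subunit of casein kinase 2, and the other received a non-targeting siRNA. All cells were transfected with Lipofectamine RNAiMAX, harvested after 48 h and fixed with formaldehyde. The antibodies recognised RBBP4, a histone-binding WD-repeat protein of several chromatin complexes, and P300, a histone acetyltransferase. Each antibody and arm had 1 immunoprecipitated library, so that biological variation between cultures could not be measured and no difference between the arms could be tested. The 4 input libraries were not analysed here. CSNK2B transcript or protein was not measured in the files, which leaves the depth of the knockdown unknown, and a single cell line limits the data to that line. In a population of cells, fewer cells carrying the bound protein and less protein bound per cell cannot be told apart.

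Netrins are secreted, laminin-related proteins that steer growing axons and migrating cells. DCC and its relative neogenin, the product of NEO1, are transmembrane receptors of the immunoglobulin superfamily that mainly mediate attraction to netrin-1, whereas UNC5 receptors mediate repulsion, alone or together with DCC. DCC and the UNC5 receptors are also known as dependence receptors, which can promote cell death when no ligand is bound. Netrin-4, the product of NTN4, is a more distant netrin found in basement membranes. Neogenin also binds repulsive guidance molecules.

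Regions were listed with a read density for each arm, normalised to region width and total reads (RPKM), and the underlying whole reads were recovered from it. The totals that scale the RPKM were inferred from the values. They were 1207945 (knockdown) and 833181 (control) reads for RBBP4, and 946392 and 1092789 for P300. Which reads of a library such a total counts is not given. Depth was low: the 2 libraries together had a median of 19 reads per listed region for RBBP4 and 12 for P300. A region is called higher or lower below where the log2 ratio of knockdown to control RPKM, with a pseudocount of 1 added to both, was at least 1 in size. Folds are ratios of reads scaled by these totals, and each interval is an exact 95% binomial interval, which covers counting error only. For RBBP4 the knockdown total is the larger, so the scaling lowers folds in the higher direction and raises those in the lower direction. For P300 it does the reverse. Whether an interval holds 1 therefore depends on the scaling as well as on the reads. The authors' deposited log2 fold change was scaled differently: relative to the RPKM ratio it was shifted by 0.57 (log2) for RBBP4 and by -0.43 for P300, and neither shift turned the direction of a region of these genes.

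RBBP4 density was higher after knockdown in 31 of the 45 regions of netrin genes (68.9%) and lower in 14 (31.1%). Over the whole RBBP4 table the same call was made for 64.9% of regions in the higher direction and 31.2% in the lower direction, so the genes taken as a set lay near the background. Their median log2 ratio was 1.31, against 1.49 for all listed regions. The genes differed among themselves in the make-up of their regions. UNC5B (7 regions) and UNC5C (11 regions) had higher regions and no lower one. UNC5A had 3 higher and 1 lower, UNC5D 5 and 4, and DCC 4 and 4. NEO1 had 1 higher and 5 lower. NTN1 and NTN4, both ligands, had no listed RBBP4 region. Of the 45 regions, 15 higher and 6 lower ones passed an adjusted p of 0.05 according to the authors' deposited table. Of all 35154 listed regions, 16989 (48.3%) and 3142 (8.94%) did. By this limit the share of higher regions was smaller than in the whole table, and that of lower regions larger. These adjusted p-values set 1 library against 1 and do not carry the spread between cultures.

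**Figure D1:**
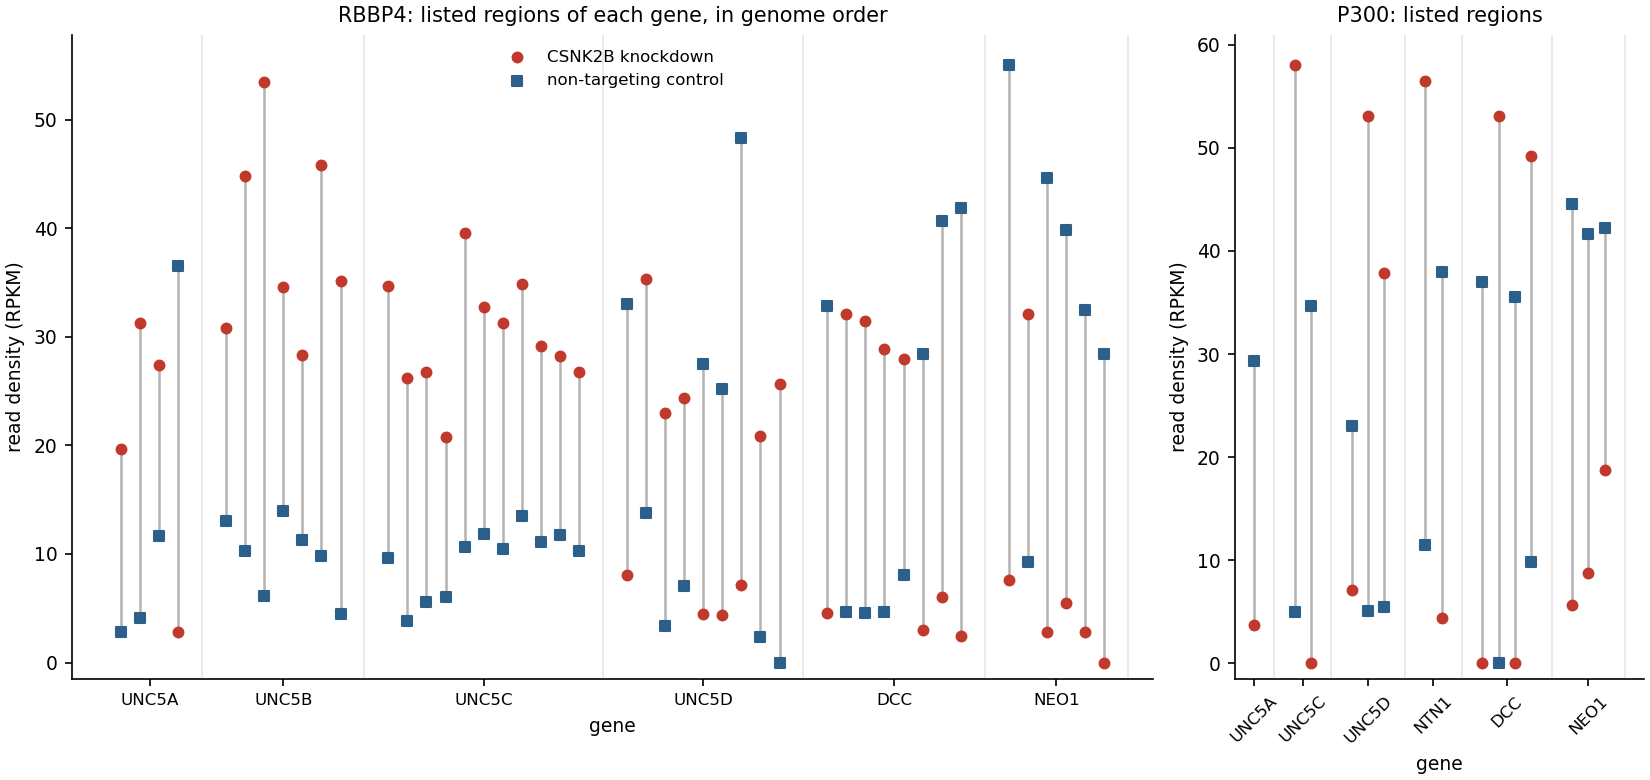
Read density (RPKM, vertical axis) of every listed region of the netrin genes for RBBP4 (left) and P300 (right), in genome order within each gene, with the knockdown library as circles and the control library as squares joined by a line. All 7 UNC5B and all 11 UNC5C regions have the knockdown circle on top in the RBBP4 panel, and 5 of 6 NEO1 regions have the control square on top.

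UNC5B held the deepest of these regions. The region, chr10:71259266-71262798, was 3533 bp wide, 8.24 times the median width of listed regions, and began 46696 bp inside the gene from its lower-numbered end. RBBP4 read density was 53.4 RPKM in the knockdown library and 6.11 in the control library, or 228 and 18 reads. The knockdown density was 8.74-fold that of the control (5.40 to 15.0), a log2 ratio of 2.94. Its adjusted p in the authors' deposited table was 4.93e-22, the 9th smallest p-value of 35154, which is also why the family was chosen. By width it ranked 16th, and by reads 115th of the 34558 regions whose reads came out whole. Chromosome 8 held 194 of the 880 regions with at least 100 reads, although it held 4.60% of all listed regions. Outside that chromosome, the UNC5B region ranked 25th by reads, and its fold ranked 26th among 686 regions with at least 100 reads, whose median fold was 4.55.

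The other UNC5B regions were smaller and went the same way. In genome order, knockdown and control reads were 24 and 7 in the first, 19 and 3 in the second, then 18 and 5, 29 and 8, 54 and 8, and 23 and 2 in those following the deepest. Control density stayed between 4.43 and 13.9 RPKM in the 7 regions and knockdown density between 28.3 and 53.4 RPKM. Over all listed RBBP4 regions the medians were 12.7 RPKM in the control and 28.9 RPKM in the knockdown library. The listing itself required a difference, and the 7 regions come from the same 2 libraries. The interval of the fold lay above 1 in 5 regions and held 1 in the other two. The region with 54 and 8 reads (4.66-fold, 2.202 to 11.3) was the next deepest. All lay 19493 bp or more from either end of the gene. The first and second also lie inside LOC112268061, a RefSeq long non-coding RNA gene at chr10:71219608-71259409, so their reads cannot be assigned to one gene. The third, which is the deepest, began at 71259266. It overlaps only the last bases of that gene, and most of its width lies beyond it.

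Of the UNC5B regions, 5 lay within 11203 bp (chr10:71259266-71270468), with gaps of 380 to 2090 bp between neighbours. Together they covered 6329 bp and held 352 knockdown and 41 control reads. Of all 35154 listed regions, 99 (0.282%) open a span of that length with as many regions. The density of listed regions over UNC5B was 7.27 per 100 kb, against a median of 1.15 among genes of similar length, and 1.09% of 3038 such genes had as many regions. The span and the numbers of regions were read from UNC5B itself, whose deepest region led to the choice of the family. Small shares are partly built in, and they are no test. A gene whose regions were all higher was not rare: 65 of 482 genes (13.5%) with at least 7 listed regions had all of them higher.

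The listed regions closest to the deepest UNC5B region in knockdown reads, control reads and width (distance on log2 scales, outside chromosome 8, among regions with whole reads) lay at DOCK11, LHX4, COLEC12, ZBTB7B and RCOR2. They had 192 and 20, 159 and 20, 213 and 20, 243 and 29, and 149 and 20 reads in the knockdown and control libraries. The distances ran from 0.346 to 0.753. Widths ran from 2179 bp at COLEC12 to 3558 bp at LHX4. RCOR2 encodes a corepressor of the REST and LSD1 complex, LHX4 a LIM-homeodomain factor, ZBTB7B a zinc-finger transcription factor and DOCK11 an activator of Cdc42.

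UNC5C had the most listed RBBP4 regions of the family. Of 730 genes of similar length, 10.4% had as many regions, and their median was 4. Knockdown density lay between 20.7 and 39.6 RPKM in the 11 regions and control density between 3.80 and 13.5 RPKM. Reads were few, from 11 to 43 per region over both libraries, and the interval of the fold lay above 1 in 4 regions and held 1 in 7. The region with the largest log2 ratio, 2.50, had 10 knockdown reads and 1 control read. Deeper regions inside the gene had 28 and 4 reads (4.83-fold, 1.69 to 18.9), 27 and 5 reads (3.72-fold, 1.41 to 12.4), and 26 and 5 reads (3.59-fold, 1.36 to 12.0). Of the 183 genes with at least 11 listed regions, 12 (6.56%) had only higher ones.

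UNC5C was also the gene with a listed region on its start site. The region, chr4:95548766-95549816, was 1051 bp wide and had 34 knockdown and 9 control reads, or 26.8 and 10.3 RPKM. The fold was 2.61 (1.22 to 6.18), and the authors' deposited table gives an adjusted p of 0.00618. It spans the whole 300 bases of the RefSeq promoter window, from 250 before to 50 after the start, and the start of the lncRNA gene UNC5C-AS1, at position 95549148, so the reads of the 2 genes cannot be told apart. At UNC5A, which is read from the opposite strand to UNC5C, the nearest region began 1123 bp after the start site. Of the 45 regions, these 2 were the ones within 3000 bp of a gene end. The listed region nearest to the start of DCC lay 26839 bp before it and outside the window of the gene, with 10 knockdown and 0 control reads, and the first one inside DCC began 160686 bp after the start. The 250 bases before the start site of these genes are shown because they set the promoter under a listed region beside one near a region and one without a region close by. They come from RefSeq, GRCh38.p14, and run 5′ to 3′ on the strand of the gene, with each CpG in capitals. UNC5C is chr4:95548974-95549223 on the minus strand, UNC5A is chr5:176810309-176810558 on the plus strand, and DCC is chr18:52339947-52340196 on the plus strand.
UNC5C: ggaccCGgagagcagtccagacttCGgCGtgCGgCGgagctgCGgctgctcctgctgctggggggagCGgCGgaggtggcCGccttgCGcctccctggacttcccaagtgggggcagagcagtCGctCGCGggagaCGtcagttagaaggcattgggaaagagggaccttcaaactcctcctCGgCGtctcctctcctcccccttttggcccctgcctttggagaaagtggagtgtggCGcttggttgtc
UNC5A: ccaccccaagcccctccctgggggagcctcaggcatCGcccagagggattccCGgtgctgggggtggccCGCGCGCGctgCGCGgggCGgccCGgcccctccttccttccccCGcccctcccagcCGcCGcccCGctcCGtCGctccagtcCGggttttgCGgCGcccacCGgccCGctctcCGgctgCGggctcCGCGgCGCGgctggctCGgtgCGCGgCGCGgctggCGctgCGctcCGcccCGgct
DCC: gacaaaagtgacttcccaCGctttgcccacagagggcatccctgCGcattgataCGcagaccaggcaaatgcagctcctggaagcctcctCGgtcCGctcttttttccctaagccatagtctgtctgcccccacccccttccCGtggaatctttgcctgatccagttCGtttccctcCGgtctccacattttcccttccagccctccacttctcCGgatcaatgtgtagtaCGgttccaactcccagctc

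The UNC5C stretch holds 17 CpG, the UNC5A stretch 36 and the DCC stretch 10. Over the whole 300-base windows the counts were 22, 44 and 15, against a median of 14 in 35116 RefSeq promoters. At least as many CpG were present in 37.7% of promoters for UNC5C, 4.19% for UNC5A and 48.9% for DCC. Of 7 motifs searched on both strands, GGGCGG occurred 4 times at UNC5A and not at UNC5C or DCC, and 44.95% of all promoters hold it. CCAAT occurred once at UNC5C, as attgg on the printed strand, and 34.6% of promoters hold it. TATAAA (11.5% of promoters), CACGTG (7.26%), TTTGGCGC (0.652%), TGACGTCA (1.85%) and TGANTCA (7.71%) were not found in these windows. NEO1 and NTN4 were also matched in the promoter table, with 35 CpG at NEO1 and 21 and 40 CpG at the 2 starts given for NTN4. UNC5B, UNC5D and NTN1 were not matched.

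UNC5A, a receptor expressed mainly in neurons, had 4 listed RBBP4 regions. The region nearest to its start had 10 knockdown and 1 control reads, the next 11 and 1 (7.59-fold, 1.10 to 327), and the third 17 and 5 (2.35-fold, 0.831 to 8.13). The remaining region, 46680 bp from the start site, had 1 knockdown and 9 control reads (13.0-fold lower, 1.81 to 572). Higher and lower regions therefore stood within the same 70340 bp gene. The widths of these intervals show how little such counts fix the size of a difference.

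**Figure D2:**
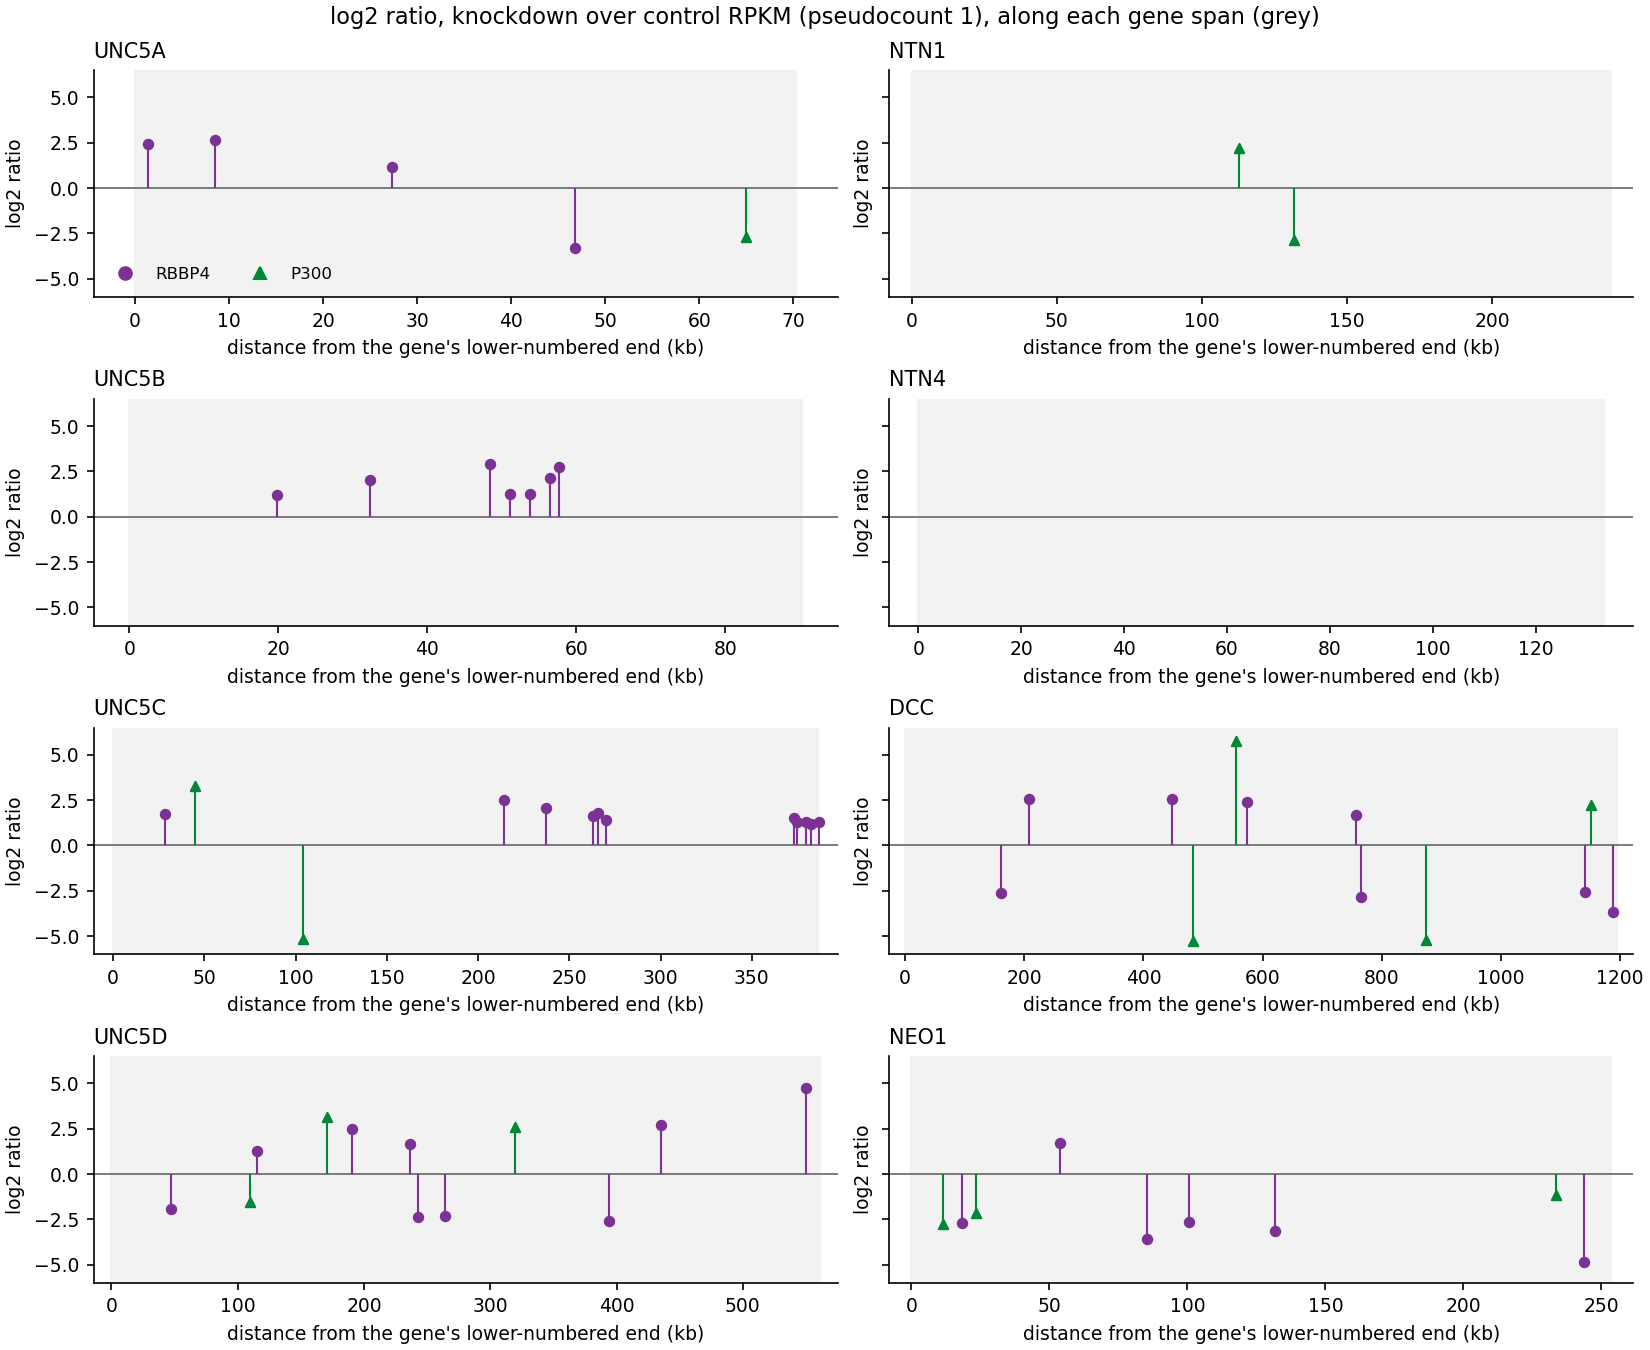
Log2 ratio of knockdown over control RPKM (pseudocount 1, vertical axis) for each listed region, placed by the distance of its midpoint from the lower-numbered end of the gene (horizontal axis, kb), with RBBP4 as circles and P300 as triangles. Of the 7 UNC5B regions 5 crowd into 11203 bp, and NTN4 is empty. Most RBBP4 regions of UNC5C lie in a mid-gene group or near the right end, which is its start site.

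UNC5D, the longest UNC5 gene, had regions of both kinds along its 561066 bp. The 5 higher regions had 26 and 7, 10 and 1, 10 and 2, 13 and 1, and 8 and 0 knockdown and control reads. The region with 26 and 7 reads was 2.56-fold higher (1.08 to 6.99). The region with 8 and 0 reads was at least 1.84-fold higher against a floor of 3 control reads, and the exact lower limit was 1.18. The 4 lower regions had 6 and 17, 4 and 17, 3 and 12, and 3 and 14 reads. The last of them was 6.77-fold lower (1.89 to 36.7). UNC5D lies on chromosome 8, which holds an excess of deep regions as given above, and its own regions had at most 33 reads.

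DCC and NEO1, the receptors on the attractive side, had shallow RBBP4 regions. No DCC region had more than 17 reads over both libraries and no NEO1 region more than 18. At DCC the 4 higher regions had 10 and 1, 10 and 1, 9 and 1, and 10 and 2 knockdown and control reads, and each interval held 1. The 4 lower regions had 2 and 10, 2 and 13, 3 and 14, and 1 and 12 reads, and each interval lay below 1. The last of these was 17.4-fold lower (2.57 to 744), and its adjusted p was 0.0277 per the authors' deposited table. Mirrored counts at DCC got different intervals through the scaling by the totals. The region with 10 and 2 reads was 3.45-fold higher (0.735 to 32.4), and that with 2 and 10 reads 7.25-fold lower (1.54 to 68.0). The p-values that the authors give for these mirrored regions are equal. The intervals therefore do not make the lower DCC regions firmer than the higher ones. The scaling bears on the RBBP4 intervals of the other genes in the same way. The last 2 of the 8 DCC regions also lie in LOC124904304, a RefSeq protein-coding gene model. The median log2 ratio of the 8 regions was -0.45. At NEO1 the lower regions had 3 and 15, 1 and 11, 3 and 15, 1 and 8, and 0 and 7 reads. The region with 1 and 11 reads was 15.9-fold lower (2.32 to 686). The region with 0 and 7 reads was at least 3.38-fold lower against the floor of 3 reads, and the exact limit was 2.09. The single higher region had 10 and 2 reads (3.45-fold, 0.735 to 32.4). The median log2 ratio over NEO1 was -2.92. A share of lower regions as large as that of NEO1 occurred in 26 of 661 genes (3.93%) with at least 6 listed regions.

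Of the 16 netrin-gene regions with at least 20 reads, 14 were higher (87.5%) and 2 were lower (12.5%): 7 at UNC5B, 5 at UNC5C, 1 at UNC5A and 1 at UNC5D were higher, and the 2 lower ones lay at UNC5D. Among all 16123 listed RBBP4 regions of that depth, 82.1% were higher and 9.58% lower, so the netrin genes were near the background at this depth too. The 14 lower regions of the netrin genes had a median of 15 reads, and the 31 higher ones a median of 18, against 13 and 23 over the whole table. The part of depth in the contrast between UNC5B or UNC5C and NEO1 or DCC was not tested.

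**Figure D3:**
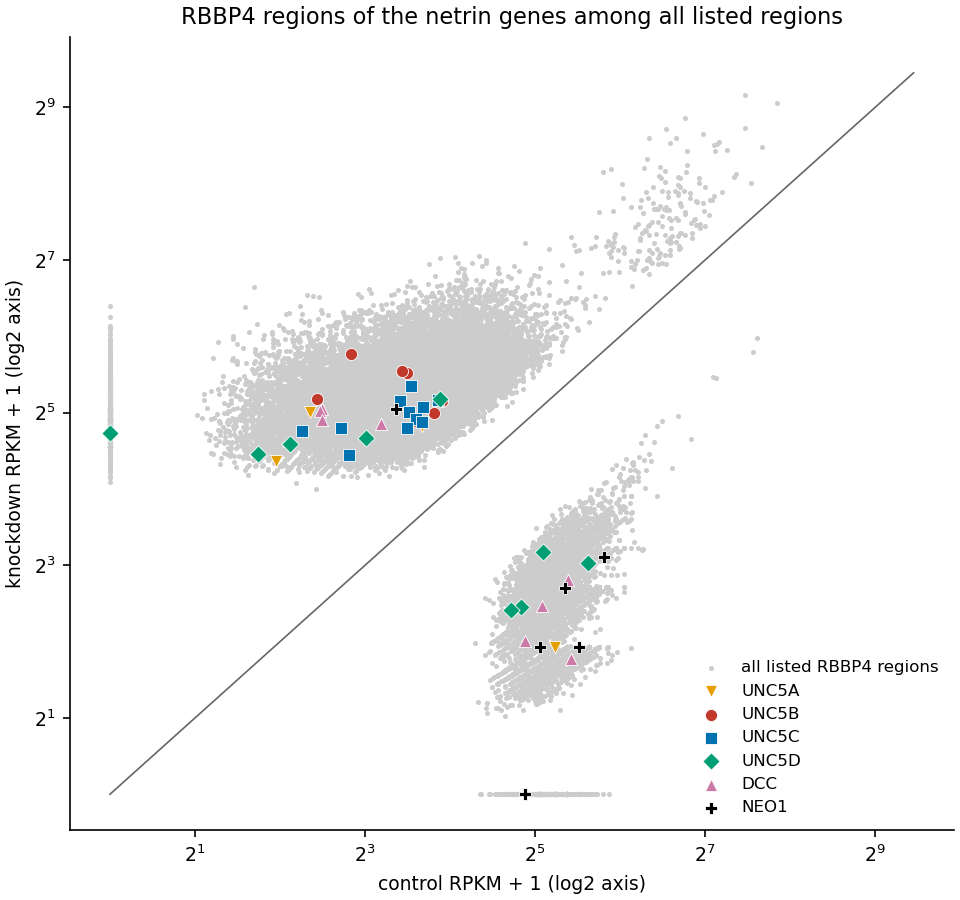
RBBP4 read density plus 1 in the knockdown library (vertical log2 axis) against the control library (horizontal log2 axis) for all 35154 listed regions (grey) and for the netrin genes (coloured by gene), with the line of equal density. The band along the line is empty because a listing required a p-value below 0.05. All UNC5B and UNC5C points lie above it while 5 of 6 NEO1 points lie below.

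The names of the listed regions gave a view of peaks that missed the p-value limit. Each name carries the arm in which the peak was called and a number, and within each arm the numbers followed genome position with 0 exceptions. If each number was given to 1 peak, the numbers at a gene bound how many peaks were called there. For RBBP4 the highest numbers were 45764 in the knockdown arm and 51139 in the control arm, of which 52.8% and 21.5% were listed. UNC5C held 17 to 19 knockdown peaks and at most 1 control peak. Of 89 genes with a lower bound of at least 17 knockdown peaks, UNC5C was the one (1.12%) with so low an upper bound of control peaks. The upper bound depends on where listed control regions lie, so other genes may hold as few control peaks. UNC5B held 9 to 10 knockdown and at most 5 control peaks. An upper bound of control peaks as low was found in 43 of 355 genes (12.1%) whose lower bound of knockdown peaks was as high.

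DCC showed the opposite balance. Its 8 listed regions were split evenly, but the numbers allow 28 to 49 control peaks against 8 to 10 knockdown peaks. Of 30 genes with a lower bound of at least 28 control peaks, 3 had so low an upper bound of knockdown peaks. NEO1 held 9 to 15 control and 1 to 8 knockdown peaks, and UNC5D 14 to 28 control and 10 to 24 knockdown peaks. UNC5A held 4 to 7 knockdown and 1 to 3 control peaks. These are bounds on calls, and no reads are known for the unlisted peaks.

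**Figure D4:**
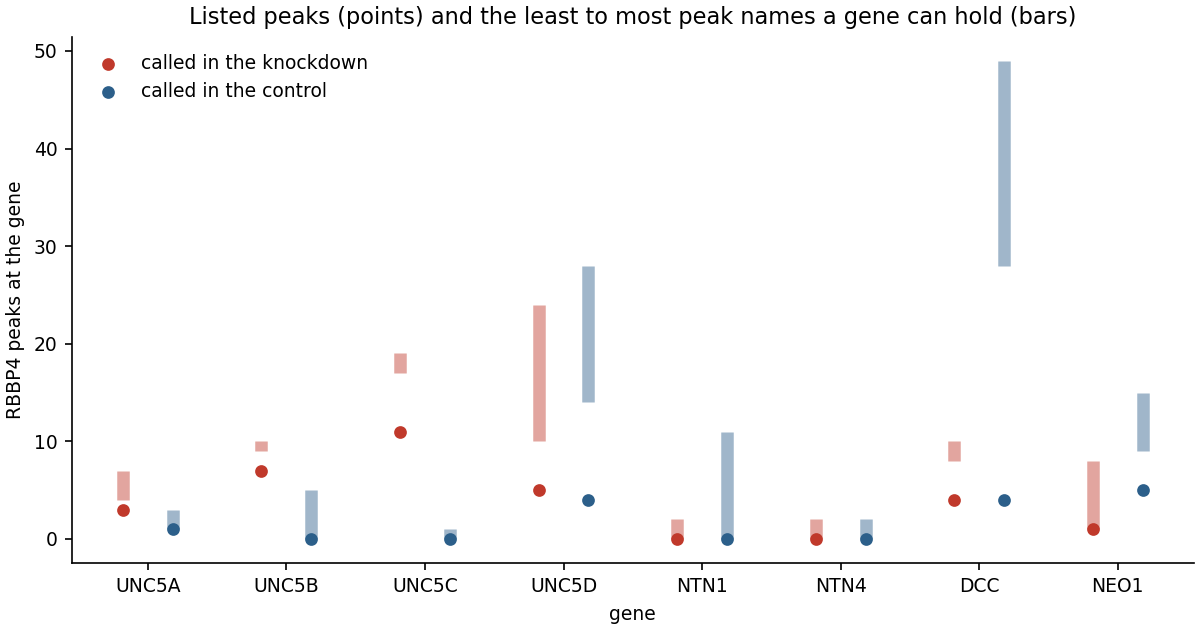
RBBP4 peaks at each gene (vertical axis) called in the knockdown (red) and in the control (blue): points are listed regions, and bars run from the least to the most peaks that the numbers in the region names allow. UNC5C has 17 to 19 knockdown and at most 1 control peak, and DCC has 28 to 49 control and 8 to 10 knockdown peaks.

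The ligand genes had no listed RBBP4 region in their windows. The nearest one to NTN1 lay 9611 bp outside the gene, with 8 knockdown reads and 1 control read (log2 ratio 2.24), and the nearest to NTN4 lay 91653 bp away. The region names allow at most 2 knockdown and 11 control peaks at NTN1, and at most 2 of each at NTN4. Of 20037 protein-coding genes, 51.6% had one or more listed regions. Among genes of similar length, having none was less common, at 14.1% for NTN1 and 24.8% for NTN4.

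P300 density was higher after knockdown in 6 of the 15 regions of netrin genes (40.0%) and lower in 9 (60.0%). Over all listed P300 regions, 34.7% were called higher and 64.3% lower, so the share again lay near the background. The median log2 ratio was -1.57, against -1.70 for all listed regions. No P300 region had an adjusted p below 0.05, and the lowest in the authors' deposited table was 0.260. UNC5B and NTN4 had no listed P300 region, and the peak numbers leave no room for a P300 peak called in the knockdown arm at UNC5B.

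At the ligand gene NTN1, 1 P300 region was higher, with 17 knockdown and 4 control reads (4.91-fold, 1.60 to 20.05), and was the only P300 region of these genes with at least 20 reads. A second NTN1 region had 1 and 10 reads (8.66-fold lower, 1.23 to 376). All 3 NEO1 regions were lower, with 1 and 9, 2 and 11, and 5 and 13 reads, and the interval of the last held 1. DCC had 2 higher regions with 9 and 0 and 13 and 3 reads, and 2 lower regions with 0 and 12 and 0 and 8 reads. Against the floor of 3 reads, the region with 9 and 0 reads was at least 3.46-fold higher, and the exact lower limit was 2.28. The region with 0 and 12 reads was at least 3.46-fold lower against that floor (exact limit 2.41), and the one with 0 and 8 reads at least 2.31-fold lower (exact limit 1.48).

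Among the UNC5 receptors, UNC5A had 1 P300 region with 1 knockdown and 9 control reads. UNC5C had one with 10 and 1 reads (11.5-fold higher, 1.64 to 501) and one with 0 and 7 reads (at least 2.02-fold lower against the floor, with an exact limit of 1.248). UNC5D had 4 and 15, 9 and 1, and 12 and 2 reads in its 3 regions. The region with 12 and 2 reads was 6.93-fold higher (1.54 to 63.7). All 15 P300 regions of the netrin genes lay 5214 bp or more from a gene end, and they were narrow, with a median width of 242 bp.

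Of the 13 P300 regions at genes that also had RBBP4 regions, 0 overlapped one. The share over all listed P300 regions was not computed, so this count cannot be read as particular to these genes. The gap to the nearest RBBP4 region ran from 5017 to 109090 bp with a median of 17578 bp, and was within 20000 bp for 9 of them. In 8 of the 13 pairs both regions had the same direction and in 5 the opposite one. How often directions matched over all listed P300 regions was not computed. The first 2 P300 regions of NEO1, both lower, lay 6524 and 5017 bp from a lower RBBP4 region. At UNC5D a lower P300 region lay as near, 5158 bp, to a higher RBBP4 region, and at DCC a higher P300 region lay 10067 bp from a lower RBBP4 region.

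Other genes of netrin signalling were taken from lists of ligands, co-receptors and effectors. Of 16 further netrins, co-receptors and binding partners, 10 had listed RBBP4 regions, 47 in all, of which 32 were higher (68.1%) and 15 lower (31.9%), with a median log2 ratio of 1.51. FLRT2, a membrane protein that binds UNC5 receptors, had a region with 73 knockdown and 6 control reads (8.39-fold, 3.68 to 23.6) and another with 2 and 15 reads. LRRC4C, the ligand of netrin-G1, had one with 25 and 3 reads (5.75-fold, 1.75 to 29.7). NTN3 had one with 28 and 7 reads (2.76-fold, 1.18 to 7.48). The lower regions included one at NTNG1, the gene of netrin-G1, with 0 and 11 reads, at least 5.32-fold lower against the floor, with an exact limit of 3.64. RGMA, a ligand of neogenin, had one with 2 and 10 reads. All 10 genes had a higher region and 5 of them, among these FLRT2, LRRC4C, NTNG1 and RGMA, also had a lower one.

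Of 27 intracellular effectors, 22 had listed RBBP4 regions. Of their 55 regions 48 were higher (87.3%) and 6 lower (10.9%), with a median log2 ratio of 1.91, where the whole table had 64.9% and 31.2%. ABLIM1, an actin-binding LIM protein, had 68 knockdown and 4 control reads (11.7-fold, 4.38 to 44.3). TRIO, a Rac exchange factor downstream of DCC, had 18 and 2 reads (6.21-fold, 1.49 to 55.2) in one region and 4 and 15 in another. TIAM1, also a Rac exchange factor, had 16 and 2 reads (5.52-fold, 1.30 to 49.5). TRIM9, a ubiquitin ligase that binds DCC, had 12 and 1 reads in one region and 2 and 10 in another. For P300, 18 regions at 11 of the effectors divided into 8 higher and 10 lower, and 22 regions at 4 of the partners into 5 higher and 17 lower. These are 44.4% and 55.6% for the effectors and 22.7% and 77.3% for the partners, against 34.7% and 64.3% of all listed P300 regions. LRRC4C held P300 regions with 13 and 1 and with 0 and 10 reads.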

How the data were processed

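RBBP4 and P300 ChIP-seq libraries of NCI-H69 cells with CSNK2B or non-targeting siRNA were compared, 1 library per antibody and arm. The submitters' processing notes list GRCh38 as the build and these tools: MACS2 2.2.7.1, Bowtie2 2.4.5, ChIPseeker 1.28.3, FastQC, DiffBind 3.4.11 and Trim Galore 0.6.7. What each was used for, and with which settings, is not given in the sources used here.

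Deposited values were RPKM per region for the knockdown and control libraries, per the file headers. The log2 fold change and mean log2 CPM are also the authors', per the file headers. Each region's p-value and adjusted p-value were deposited by the authors, and all listed p-values lay below 0.05. Arms were matched to columns by name alone, and in the RBBP4 table those names are initials with a digit. No column of per-sample values was left unused.

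RPKM times region width gave whole reads, within 0.01, in 98.3% of RBBP4 and 99.4% of P300 regions, and in all regions of the 8 genes. The total behind the RPKM was inferred from the values. Differences were taken as log2 with a pseudocount of 1 RPKM, which understates low regions. A value of 0 was set to a floor of 3 reads per library for bounds. Intervals are Clopper-Pearson intervals and cover counting error only. Read recovery was tested on simulated data, and the calls were not. Gene spans and promoters came from RefSeq, GRCh38.p14, and an overlap of 1 bp sufficed. Genes of similar length were within a factor of 1.5.

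The members, lists and rules were chosen with earlier results of these data known. All regions of the 8 genes are counted, and those with most reads, the largest ratio in each direction or near a start are named, with up to 4 genes per list, antibody and direction at or above the median level. The 5 most similar regions were taken by distance in log2 reads and width. Slit, Robo, semaphorin and plexin genes were also listed. Alternatives were other pseudocounts, read minimums, fold thresholds, gene windows and the deposited values. Computation used Python 3.11.15, pandas 2.3.3, numpy 2.4.6 and scipy 1.17.1.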

Additional observations from a re-analysis of the deposited data

How the results depend on the processing

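Main counts were 31 higher and 14 lower RBBP4 regions, and 6 higher and 9 lower P300 regions. With at least 20 reads they were 14, 2, 1 and 0, in the same order. At or above the median level of the table, higher RBBP4 regions numbered 10, lower RBBP4 regions 6 and lower P300 regions 3. At a 4-fold threshold 14 higher RBBP4 regions were left. Calls by the authors' deposited table, at an adjusted p of 0.05, gave counts of 15, 6, 0 and 0. These settings keep fewer regions by construction. The other 28 of 40 alternative counts lay within 1.5 times the main count, among them those with pseudocounts of 0.1 and 5 and with windows of 0 and 10000 bp. For the deepest region of each gene, 44 of 48 alternative values kept direction and call. With a pseudocount of 5, UNC5A (RBBP4) was 0.96 and NEO1 (P300) -0.99. Taking the region with most reads per kb in place of most reads picked another region: DCC (RBBP4) went from -2.57 to 2.55 and UNC5D (P300) from -1.57 to 3.15. No paired analysis was possible because each arm had 1 library and the labels carry no replicate numbers. No library could be left out for the same reason. Depth and the scaling by the totals both bear on the intervals: 18 of 45 RBBP4 and 1 of 15 P300 intervals held 1. All 14 lower RBBP4 regions had an interval below 1, so the 18 all belonged to higher regions. The scaling lowers the folds of those higher regions. Intervals were not computed for all listed regions, so whether such counts, by gene or together, are usual is unknown.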

Other observations

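Genes of 2 other guidance families were measured in the same tables. Slit ligands, Robo receptors and their srGAP partners (10 genes) had 90 listed RBBP4 regions at 9 genes, 71 higher (78.9%) and 14 lower (15.6%), with a median log2 ratio of 1.74. Over all listed RBBP4 regions 64.9% were higher and 31.2% lower, and the median was 1.49. SLIT3, a secreted Slit ligand, had a region with 96 knockdown and 8 control reads (8.28-fold, 4.04 to 19.7). ROBO1, a Slit receptor, had 84 and 7 reads (8.28-fold, 3.85 to 21.2). SRGAP2, whose product binds Robo receptors, had 56 and 4 reads (9.66-fold, 3.57 to 36.7), and SLIT2 had 43 and 4 (7.41-fold, 2.69 to 28.4). ROBO2 had a lower region with 1 and 12 reads (17.4-fold lower, 2.57 to 744). SRGAP2 also had a lower one, with 1 and 10 reads (14.5-fold lower, 2.06 to 629). Of the 9 genes, 5 had both higher and lower regions. For P300, 48 regions at 8 of these genes divided into 20 higher (41.7%) and 28 lower (58.3%), against 34.7% and 64.3% of all listed P300 regions.

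Semaphorins, plexins and neuropilins (28 genes) had 96 listed RBBP4 regions at 17 genes, 71 higher (74.0%) and 17 lower (17.7%), with a median log2 ratio of 1.46, against the same 64.9%, 31.2% and 1.49 over all listed regions. The secreted class 3 semaphorins SEMA3D, SEMA3A and SEMA3C had regions with 47 and 2, 56 and 4, and 26 and 2 knockdown and control reads. The fold at SEMA3D was 16.2 (4.24 to 138). SEMA3D also had a lower region, with 5 and 19 reads (5.51-fold lower, 1.99 to 18.9). Of the 17 genes, 8 had both higher and lower regions. PLXNA4, a plexin receptor of these ligands, had a lower region with 1 and 11 reads. For P300, 15 regions at 10 genes divided into 4 higher (26.7%) and 11 lower (73.3%), against the same 34.7% and 64.3%. As with the netrin genes, the lists were chosen with earlier results known, and their shares are descriptions.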
